A study of Caenorhabditis elegans with 3 samples.

Results

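The snf genes of Caenorhabditis elegans encode transporters of the SLC6 family, and 10 of them are described here: snf-1, snf-2, snf-3, snf-5, snf-6, snf-7, snf-8, snf-9, snf-10 and snf-11. They were chosen by name, through the platform annotation or the current gene symbol, and selected on the log2 ratios described below, which were known when the list was drawn up. All values of the snf genes are therefore given as descriptions, with no test. Of the 10 genes, 9 had a row in the deposited table, 1 row each and with a value on every array, among 14783 named genes and 19719 features measured on all 3 arrays. No row was matched to snf-5, and it was not analysed here.

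SLC6 proteins are membrane carriers that use the sodium gradient, and mostly chloride as well, to bring small molecules such as neurotransmitters, amino acids and osmolytes into cells. In the nervous system they end transmission by taking transmitter back up, and in gut and other epithelia related carriers take up nutrients. In C. elegans, SNF-11 carries GABA, SNF-3 carries betaine and SNF-6 carries acetylcholine and choline at the neuromuscular junction. SNF-10 acts outside the nervous system: it lies in the sperm membrane and is needed when male proteases turn the round, immotile spermatid into a crawling sperm. For snf-1, snf-2, snf-7, snf-8 and snf-9 no role is given here.

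The study compared animals that make only oocytes with animals that make only sperm. In fem-1(lf), loss of fem-1 function turns XX worms into females, because the gene is needed for the male fate of germ cells. In fem-3(gf), an overactive fem-3 keeps the germ cells of XX worms on the sperm fate. Each of 3 arrays of 2 colours held 1 prep of RNA of each genotype, numbered prep 1 to prep 3. The allele numbers, the strain background and the age of the animals are not given in the labels, nor are the dyes or whether the preps came from separate cultures, so p-values below reflect the spread of these 3 hybridisations alone, part of which may be technical. A value below 0 was read as a higher level in fem-3(gf). This direction is likely but not stated: the descriptions put fem-1(lf) before fem-3(gf), and the markers went the same way.

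The oocyte markers and most sperm markers lay on opposite sides of 0. Since the direction of the ratio was read in part from them, the side each took is no separate check of it. All 9 measured oocyte markers were higher in fem-1(lf), with a median log2 ratio of 2.86 and oma-2 at 3.49 and cpg-1 at 3.22. Of 10 sperm markers, 9 were higher in fem-3(gf), with a median of -3.91, smz-1 at -6.63 and gsp-3 at -5.76, while spe-39, which also acts in vesicle traffic outside sperm, was at 0.53 (named with its value known), a call lost when prep 2 (0.50) or prep 3 (0.54) was left out. The somatic markers lay below 0 on the deposited scale: their medians were -0.43 for neurons, -0.48 for muscle, -0.61 for intestine and -0.32 for epidermis and cuticle, 12 genes each, against a median of -0.10 over all features. In RNA of whole animals, fewer cells of a type and less RNA per cell cannot be told apart. The array medians were -0.15, -0.07 and -0.07 for preps 1, 2 and 3, and a typical feature varied by an SD of 0.22 between them (median over features).

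The snf genes had ratios on the side of fem-3(gf), and their means spanned 4.13 on the log2 scale. At one end, snf-10 was 18.4-fold higher in the sperm-making animals, with snf-9 at 10.95-fold and snf-2 at 8.28-fold. At the other end, snf-1 had a mean log2 ratio of -0.07. All 3 arrays were below 0 for 8 of the 9 measured genes, as they were for 41.4% of all features. A mean of at least 2-fold on the fem-3(gf) side with the same sign on every array was reached by 6 of the 9, as by 10.3% of all features. Since these ratios entered the choice of the genes, nothing is read from the counts. The median of the 9 means was -1.52.

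**Figure D1:**
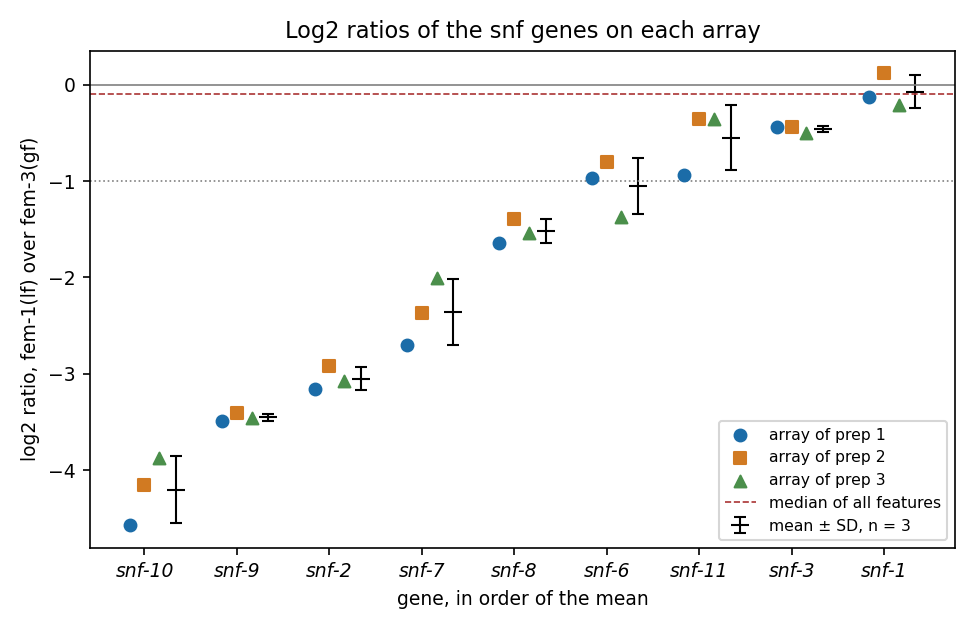
Log2 ratio of fem-1(lf) over fem-3(gf) for each of the 9 measured snf genes, in order of the mean. Coloured symbols are the arrays of preps 1 to 3, black bars the mean ± SD (n = 3), the dashed line the median of all features at -0.10 and the dotted line a 2-fold difference. The means run from -4.20 for snf-10 to -0.07 for snf-1.

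The gene known from sperm, snf-10 (Y32F6A.2, chromosome V), had log2 ratios of -4.57, -4.16 and -3.88 on the arrays of preps 1, 2 and 3. On the linear scale the fem-1(lf) signal was 0.042, 0.056 and 0.068 of the fem-3(gf) signal. The mean was -4.20 ± 0.35 (SD, n = 3). Every array put the gene on the fem-3(gf) side, from 14.7-fold on prep 3 to 23.8-fold on prep 1. Only 2.34% of all features had a lower mean, 461 in number. The mean lay between the sperm markers fer-1, a ferlin gene of membrane fusion, at -3.25 and msp-142, a major sperm protein gene, at -4.57, both named after their values were seen.

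Next in order came snf-9 (C49C3.1, chromosome IV), with log2 ratios of -3.49, -3.41 and -3.46. Its mean was -3.45 ± 0.04 (SD, n = 3). The arrays of this gene differed by only 0.08 at most, against 0.70 for snf-10. The ratios of snf-2 (F55H12.1, chromosome I) were -3.16, -2.92 and -3.07, with a mean of -3.05 ± 0.12. Both genes lay below all but a few percent of the features, 3.81% having a lower mean than snf-9 and 4.51% a lower mean than snf-2. On every array snf-10 was below snf-9, by 0.75 ± 0.33 (SD, n = 3) on the log2 scale, and snf-9 was below snf-2, by 0.40 ± 0.08.

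For snf-7 (ZK1010.9, chromosome III) the ratios were -2.70, -2.37 and -2.01, with a mean of -2.36 ± 0.35 (SD, n = 3), or 5.13-fold. This gene and snf-10 had the widest spread between arrays, and both were lowest on prep 1 and highest on prep 3. For snf-8 (ZK829.10, chromosome IV) they were -1.64, -1.39 and -1.54, with a mean of -1.52 ± 0.12, or 2.87-fold. RefSeq lists snf-8 as a pseudogene in assembly WBcel235, whereas the older platform annotation pairs its row with a transcript. The difference was thus measured at a spot whose gene is now listed as not coding for a protein. A ratio of 4-fold or more on each of the 3 arrays was seen for 4 snf genes, snf-10, snf-9, snf-2 and snf-7, and for 5.79% of all features.

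The carriers with a known substrate lay nearer to 0 than the genes described so far, as did snf-1, for which no role is given here. For snf-6 (M01G5.5, chromosome III), the acetylcholine and choline carrier, the log2 ratios were -0.97, -0.80 and -1.37, with a mean of -1.05 ± 0.29 (SD, n = 3). Prep 3 alone was past 2-fold. The mean was just past that size, at 2.07-fold, and it was -0.89 (log2) without that array. The GABA carrier snf-11 (T03F7.1, chromosome V) had -0.94, -0.36 and -0.35, with a mean of -0.55 ± 0.34. Here prep 1 stood apart, and without it the mean was -0.36. The betaine carrier snf-3 (T13B5.1, chromosome II) had -0.44, -0.44 and -0.50, with a mean of -0.46 ± 0.03, the smallest SD of the family.

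The means of these 3 genes lay within the ranges of the muscle markers, -1.07 to 0.09, and of the intestine markers, -2.7 to 0.27. Those of snf-11 and snf-3 also lay within the ranges of the neuron markers, -0.77 to 0.33, and of the epidermis and cuticle markers, -1.03 to 1.23. The mean of snf-6 was below both of these ranges. Of the muscle markers, 6 of 12 were higher in fem-3(gf), as were 23.7% of all features. So were 8 of 12 neuron and 8 of 12 intestine markers and 4 of 12 markers of epidermis and cuticle, where 1 went the other way. Without prep 3 these counts were 5 for muscle, 1 for neurons, 2 for intestine and 3 for epidermis and cuticle. They were 2, 2, 6 and 2 without prep 2, and 4, 4, 8 and 2 without prep 1. Such fits rest on 2 arrays and call fewer features in general. Of all features, 2740, 3137 and 4072 were higher in fem-3(gf) without preps 3, 2 and 1, against 4667 with all arrays. With each array centred on its median the counts were 6 for muscle, 3 for neurons, 8 for intestine and 3 for epidermis and cuticle. On that scale 1 neuron marker and 1 marker of epidermis and cuticle were higher in fem-1(lf). With each array centred on the pooled median of the 48 neuron, muscle, intestine and epidermis markers, snf-3 was at -0.02, snf-11 at -0.11 and snf-6 at -0.61, and the median of all features moved from -0.10 to 0.34. The part of the somatic shift in their ratios was not tested. On that scale snf-10 was still at -3.76, snf-9 at -3.01, snf-2 at -2.61, snf-7 at -1.92 and snf-8 at -1.08.

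The remaining gene, snf-1 (W03G9.1, chromosome I), had log2 ratios of -0.13, 0.12 and -0.21, the only member with arrays on both sides of 0. Its mean of -0.07 ± 0.17 (SD, n = 3) is smaller than its spread. The sign depends on where 0 is set, since the mean was 0.02 after centring on the median of all features and 0.37 after centring on the somatic markers. On the deposited scale 52.45% of all features had a lower mean than snf-1.

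**Figure D2:**
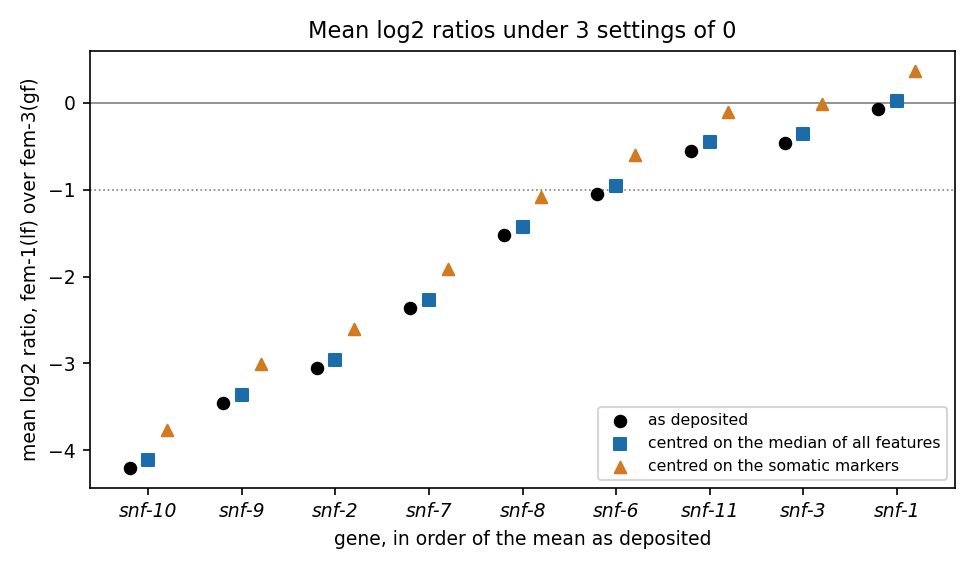
Mean log2 ratio of each measured snf gene as deposited (black circles), with each array centred on the median of all features (blue squares) and with each array centred on the somatic markers (orange triangles). The dotted line marks 2-fold. The 5 genes from snf-10 to snf-8 stay below it under each setting, snf-6 moves from -1.05 to -0.95 and -0.61, and snf-1 changes sign.

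In the order of the means, the arrays of neighbouring genes did not overlap from snf-10 through snf-9, snf-2, snf-7 and snf-8 to snf-6. They overlapped between snf-6 and snf-11, which differed by 0.50 ± 0.49 (SD, n = 3), and between snf-11 and snf-3, which differed by 0.09 ± 0.35. The last step, from snf-3 to snf-1, was 0.39 ± 0.15, without overlap. These are differences between log2 ratios, not between levels, which the deposited ratios do not give. Prep 1 was the lowest array for 6 of the 9 genes and prep 3 for 3, while prep 1 was the highest for none. The median of all features was also lowest on prep 1. Taken against the array medians, snf-10 was still lowest on prep 1 (-4.43, -4.09 and -3.81). By that measure snf-9 was lowest on prep 3 (-3.34, -3.34 and -3.39). How many of all features were lowest on each array was not counted, so nothing is read from the counts of genes.

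**Figure D3:**
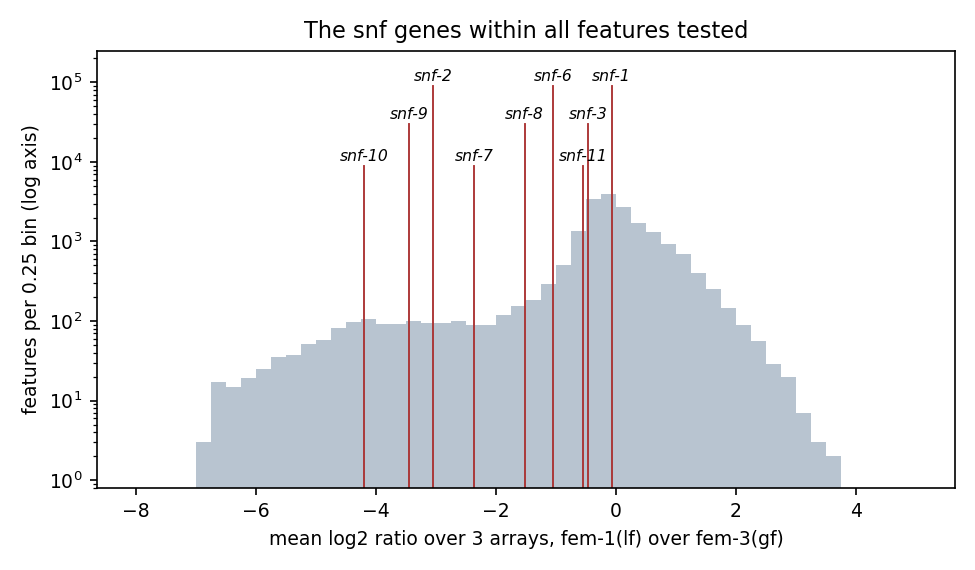
Number of features in each bin of 0.25 of the mean log2 ratio (n = 3 arrays, log axis), with the means of the 9 measured snf genes as red lines. Most features lie near 0 and a long shoulder reaches below -2, where snf-7, snf-2, snf-9 and snf-10 lie.

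The 9 genes were spread over 5 chromosomes and none lay on X. Genes next to them in the RefSeq order of protein-coding genes, looked up after the snf values were seen, lay on both sides of 0. Of 18 neighbours 12 were measured on all arrays. With limma, a linear model that borrows variance across all features (adjusted p under 0.05), 4 of the 12 were higher in fem-1(lf), 2 were higher in fem-3(gf) and 6 did not pass, against 21% and 23.7% of all features on those sides. Beside the 6 snf genes at 2-fold or more, 8 neighbours were measured, of which 4 were higher in fem-1(lf) and none passed on the fem-3(gf) side. The gene before snf-2, spe-54, was among the neighbours not measured on all arrays, so its side is not known. On either side of snf-10 lie set-22 at 1.40 ± 0.05 (SD, n = 3, adjusted p = 0.000378) and pap-1 at 0.73 ± 0.16 (adjusted p = 0.00594), both higher in fem-1(lf). The gene after snf-8 in that order, ZK829.9, was at 2.47 ± 0.61 (adjusted p = 0.000747). The fourth call on that side, col-98 beside snf-7, a collagen gene, was at 0.48 (adjusted p = 0.0496) and was lost when prep 2 (0.39) or prep 3 (0.40) was left out, and with features measured on at least 2 arrays included (adjusted p = 0.0521). Both calls towards fem-3(gf) were lost with 0 set by the somatic markers: T03F7.7 beside snf-11 went from -0.68 to -0.24 (adjusted p = 0.223) and pho-14 beside snf-3 from -0.84 to -0.40 (adjusted p = 0.0829).

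Of the other SLC6 genes listed, snf-12 and dat-1 had a row and neither passed the test, while snf-4 and mod-5 were not analysed here. The X-linked gene snf-12 (T25B6.7), which takes part in the defence of the epidermis against fungal infection, had log2 ratios of -0.44, -0.35 and -0.09, with a mean of -0.30 ± 0.18 (SD, n = 3, limma adjusted p = 0.111). The dopamine carrier gene dat-1 (T23G5.5, chromosome III) had -0.69, -0.48 and 0.13, with a mean of -0.35 ± 0.42 (adjusted p = 0.174). Its arrays lay on both sides of 0.

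The transmitter transporters of other families and the lists around GABA, acetylcholine and betaine, and dopamine and serotonin had medians between -0.36 and -0.15. Of 12 measured transmitter transporters of other families, 5 were higher in fem-3(gf), none passed on the fem-1(lf) side and 7 did not pass, with a median log2 ratio of -0.36. Over all features the shares were 23.7% for fem-3(gf) and 21% for fem-1(lf). The largest were vglu-2 and vglu-3, relatives of the vesicular glutamate transporter, at -1.70 ± 0.27 (SD, n = 3, limma adjusted p = 0.000462) and -1.13 ± 0.38 (adjusted p = 0.00397). The glutamate carrier gene glt-3 was at -0.60 ± 0.01, with rows at -0.68 and -0.53, and lost its call when prep 3 was left out (-0.61) and with 0 set by the somatic markers (-0.16). The count of 5 was 3 without prep 2 and 2 without prep 3, and also 2 with 0 set by the somatic markers, where the list's median was 0.08.

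Around GABA, 2 of 11 measured genes were higher in fem-3(gf) and 9 did not pass, with a median of -0.22. These were lgc-37, a GABA receptor subunit gene, at -0.85 ± 0.07 (SD, n = 3, limma adjusted p = 0.00256) and unc-25, which encodes the enzyme that makes GABA, at -0.72 ± 0.17 (adjusted p = 0.00678). Of all features, 23.7% were higher in fem-3(gf). Both calls held with each array centred on the array median and after scaling to the same spread. With 0 set by the somatic markers both were lost, lgc-37 at -0.41 (adjusted p = 0.0559) and unc-25 at -0.28 (adjusted p = 0.161), and 3 genes then passed on the fem-1(lf) side. Without prep 1 there was also 1 call on the fem-1(lf) side.

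Around acetylcholine and betaine, 5 of 21 measured genes were higher in fem-3(gf), 1 was higher in fem-1(lf) and 15 did not pass, with a median of -0.26. Of all features, 23.7% and 21% passed in these directions. The largest was unc-29, a subunit of the muscle acetylcholine receptor, with ratios of 0.251, 0.390 and 0.263 on the linear scale and a mean log2 ratio of -1.76 ± 0.35 (SD, n = 3, limma adjusted p = 0.00065). The receptor chaperone gene ric-3 was at -0.68 ± 0.16 and the acetylcholinesterase gene ace-2 at -0.56 ± 0.06. Without prep 3 neither passed (-0.62 and -0.59), nor did ace-2 without prep 2 (-0.58). The gene on the other side, mpst-1 at 0.96 ± 0.14, encodes a sulfurtransferase and not an acetylcholine enzyme or receptor. The betaine receptor gene acr-23 was at -0.02 ± 0.45 and did not pass (adjusted p = 0.931); it was named after its value was seen. The 5 became 2 without prep 2 and 1 without prep 3, and 1 with 0 set by the somatic markers, with 5 then on the fem-1(lf) side.

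Among 14 measured genes of dopamine, serotonin and the related amines, 3 were higher in fem-1(lf), 4 were higher in fem-3(gf) and 7 did not pass, with a median of -0.15, where 21% and 23.7% of all features passed. The enzyme gene tdc-1, which makes tyramine, was at 2.29 ± 0.31 (SD, n = 3, limma adjusted p = 0.000189). The dopamine receptor gene dop-4 was at 0.95 ± 0.43 and tbh-1, which makes octopamine from tyramine, at 0.37 ± 0.07. On the other side the serotonin receptor gene ser-7 was at -0.65 ± 0.06, the dopamine receptor gene dop-1 at -0.59 ± 0.31 and bas-1, a decarboxylase gene of both pathways, at -0.53 ± 0.02. Without prep 3 none of these 3 passed (-0.62, -0.57 and -0.54), and tbh-1 did not pass without any 1 of the preps (0.33 to 0.39). Calls on the fem-3(gf) side numbered 1 without prep 2 and 0 without prep 3, and 0 with 0 set by the somatic markers.

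Sperm activation, the process in which snf-10 acts, was represented by 11 other measured genes, and 8 of them were higher in fem-3(gf), 1 was higher in fem-1(lf) and 2 did not pass, where 23.7% and 21% of all features passed. Their median log2 ratio was -2.46, and it was -2.02 after centring on the somatic markers. The largest were spe-46 at -5.68 ± 0.85 (SD, n = 3, limma adjusted p = 8.3e-05), spe-27 at -3.87 ± 0.21 (adjusted p = 1.767e-05) and spe-8, a kinase gene, at -3.61 ± 0.63 (adjusted p = 0.00019). The mean of snf-10 lay between those of spe-46 and spe-27. The gene on the fem-1(lf) side was zipt-7.1, a zinc transporter gene, at 0.86 ± 0.02, with rows at 0.85 and 0.88.

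Of the protease route through SNF-10, 2 genes were picked out after their values were seen. The protease gene try-5, whose product is made in the male somatic gonad and passed on with the seminal fluid, had linear ratios of 0.739, 0.844 and 0.820 and a mean log2 ratio of -0.32 ± 0.10 (SD, n = 3, adjusted p = 0.0706). The protease inhibitor gene swm-1 had 0.430, 0.419 and 0.379 and a mean of -1.29 ± 0.10 (adjusted p = 0.000572). The transporter gene snf-10 was at a lower ratio than either, by array as well as by mean. All 3 genes were picked with their values known, so this is a description, and nothing is read from it about the route.

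**Figure D4:**
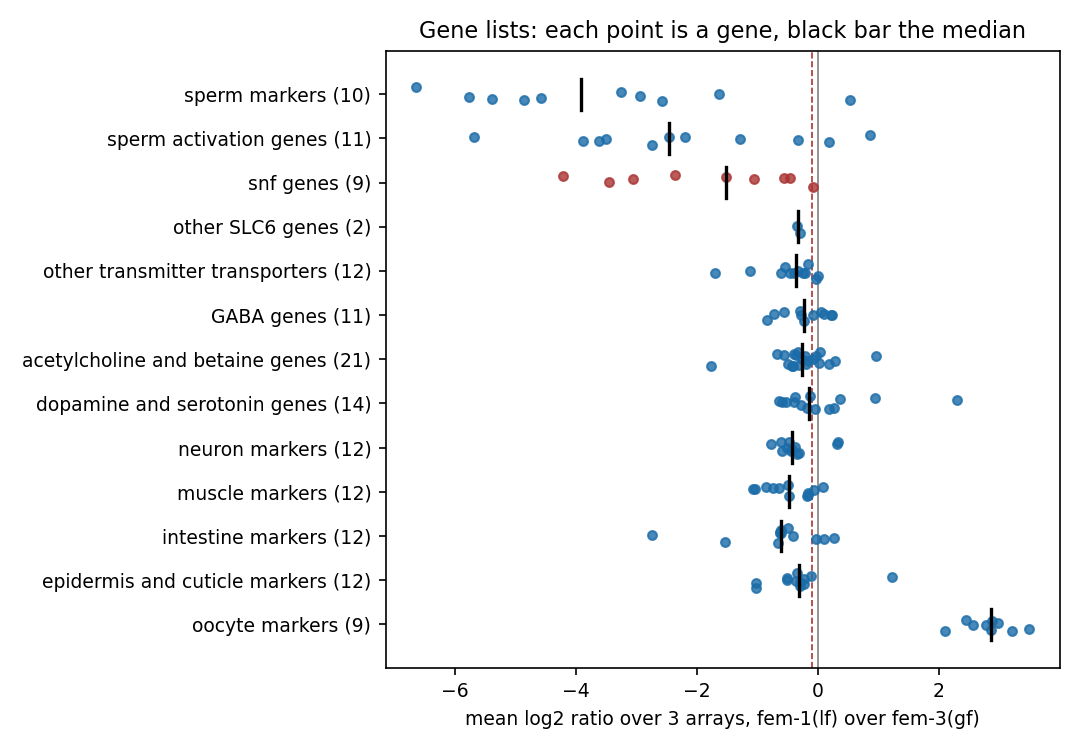
Mean log2 ratio (n = 3 arrays) of each gene in the lists, with the number of measured genes in brackets. Red points are the snf genes, blue points the other lists, black bars list medians, and the dashed line is the median of all features. The snf genes reach from the range of the sperm markers (median -3.91) to that of the neuron and muscle markers (medians -0.43 and -0.48).

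By root mean square difference over the 3 arrays, the named genes most like snf-10 were cyp-25A3, a cytochrome P450 gene, at 0.03, F45E4.6 at 0.08, F13A7.7 at 0.10, and C07E3.4 and C10G11.1 at 0.11 each. The log2 ratios of cyp-25A3 were -4.57, -4.11 and -3.88. In all, 37 named genes lay within 0.25 of snf-10. The same limit around snf-1 took in 2497, with rpl-13A, a ribosomal protein gene, and T22F3.7 nearest at 0.02 each, followed by lmd-5 at 0.02 and alx-1 and C27D6.1 at 0.03. Likeness over 3 arrays of a single contrast is a statement about the size of the ratio.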

How the data were processed

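RNA of fem-1(lf) and fem-3(gf) animals had been compared on 3 arrays of 2 channels, which form 1 group with the array as replicate. The authors deposited 1 log2 ratio per row and array (21611 rows); base 2 was inferred, because it turns all but 4 of 64209 values into linear ratios in whole thousandths (tolerance 0.01). The sources used here do not give the background correction, centring, scaling or dyes. Spot intensities were not analysed here, so ratios could not be weighed by signal over background, and no dye effect can be taken out. The small number of arrays limits the precision.

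Row names came from the platform annotation, updated by the WBcel235 gene table of RefSeq (16360 by gene ID, 8 by accession, 82 by platform symbol alone, 247 with several genes, 4914 with none), and rows of a gene were averaged. Features with a value on all 3 arrays were fitted as deposited with limma 3.58.1 in R 4.3.3 (intercept against 0, eBayes, two-sided, Benjamini-Hochberg over 19719 features, threshold 0.05). By sign alone, 3 arrays cannot give a p under 0.25. The calls rest on the size and spread of the ratios, with variance shared across features. On simulated data the fit recovered 37% of features changed by 1 and 97% of those changed by 2 (log2), with 8 false among 142 calls. The simulation changed 100 features of each size among 19719, whereas 4148 and 4667 features were called per side in the data. The adjustment is stricter where fewer features change, so these shares do not give the power of this comparison.

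The members and lists were chosen with earlier results of these data known. Named are all snf genes, the other SLC6 genes, up to 3 called genes of largest size per side of each list, up to 2 examples per marker list, and the 5 genes nearest to the outermost snf genes; exceptions are stated. Alternatives were other centring, scaling, single rows, 2 arrays enough, leaving out each array, robust variance and an adjusted p under 0.01. Promoter and protein sequences were not analysed here. Figures were drawn with matplotlib 3.10.9.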

Additional observations from a re-analysis of the deposited data

How the results depend on the processing

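The snf means kept their side under every alternative tried except for snf-1, and 5 or 6 of the 9 measured genes were at 2-fold or more, snf-6 being the gene that changed. Their median moved from -1.52 to -1.08 after centring on the somatic markers, by that setting's own construction. Sperm activation genes higher in fem-3(gf) numbered 8 and other SLC6 genes 0 under every alternative tried. Most other list counts moved with where 0 is set. Higher in fem-3(gf), centring on the array median gave 3 transmitter transporters of other families, 3 acetylcholine and betaine genes, 2 dopamine and serotonin genes, 3 choline genes and 1 SLC7 gene, and scaling to the same spread gave 3, 3, 3, 4 and 1 of these. Centring on the somatic markers gave 2, 1, 0, 2 and 1 with 0 GABA genes, and on the fem-1(lf) side 3 GABA, 5 acetylcholine and betaine, 5 dopamine and serotonin, 4 choline, 2 SLC7 and 2 sperm activation genes. An adjusted p under 0.01 left 3, 2, 1, 2 and 1 on the fem-3(gf) side. With each row on its own, 3 acetylcholine and betaine rows and 2 sperm activation rows passed on the fem-1(lf) side.

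Over all features, 4148 calls favoured fem-1(lf), 47.1% of the total, and 4667 favoured fem-3(gf). The split was 8230 and 2133 (79.4%) after centring on the somatic markers, 56.6% after centring on the array median, 56.4% after scaling, and 2699 and 2543 at an adjusted p under 0.01. Leaving out each array in turn gave 2740 to 4072 features higher in fem-3(gf), 2 to 5 transmitter transporters, 1 to 4 acetylcholine and betaine genes, 0 to 3 dopamine and serotonin genes, 2 to 6 choline genes, 1 SLC7 gene each time, and 0 to 1 GABA genes higher in fem-1(lf). The cause of these changes was not tested. Each array is itself the ratio of the 2 preps of 1 number, so the fit against 0 already pairs the genotypes by array. The planned sequence comparison was not run.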

Other observations

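Choline, which SNF-6 carries, is also the head group of phosphatidylcholine, and the genes that make this lipid lay on both sides of the ratio. Of 13 measured, 2 were higher in fem-1(lf), 6 were higher in fem-3(gf) and 5 did not pass, with a median log2 ratio of -0.23, against 21% and 23.7% of all features on those sides. The gene pcyt-1, of the rate-limiting step, was at 1.12 ± 0.45 (SD, n = 3, limma adjusted p = 0.00612) and the choline kinase gene ckb-2 at 0.76 ± 0.12 (adjusted p = 0.00439). A second choline kinase gene, ckb-1, was on the other side at -1.12 ± 0.27 (adjusted p = 0.00222), beside sams-5, an S-adenosylmethionine synthetase gene, at -1.74 ± 0.23 (adjusted p = 0.000335) and cept-1, of the last step of the pathway, at -0.54 ± 0.17 (adjusted p = 0.018), a call lost when prep 2 (-0.55) or prep 3 (-0.46) was left out. The 6 became 2 without prep 2, 2 without prep 3 and 2 with 0 set by the somatic markers.

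The list labelled SLC7 held amino acid transporter genes named aat and also atgp-1 and atgp-2, which are not aat genes. It had 1 member at a 4-fold ratio towards fem-3(gf). Of 10 measured, 1 was higher in fem-1(lf), 3 were higher in fem-3(gf) and 6 did not pass, with a median log2 ratio of -0.28, against 21% and 23.7% of all features on those sides. The gene aat-6 (chromosome V) had log2 ratios of -2.11, -2.04 and -2 on preps 1, 2 and 3 and a mean of -2.05 ± 0.06 (SD, n = 3, limma adjusted p = 8.325e-05). It remained the only call on that side without any 1 of the preps. The others, aat-4 at -0.45 ± 0.25 and atgp-1 at -0.42 ± 0.15, with rows at -0.60 and -0.23, did not pass in any of those fits. The gene on the fem-1(lf) side was aat-3 at 0.72 ± 0.16 (adjusted p = 0.00637).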
